A study of Caenorhabditis elegans with 4 samples.

Results

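The cuticlin and apical matrix genes of C. elegans were compared between aged worms of low and high physical ability. They comprise every gene whose symbol is cut, cutl or lpr followed by a number, together with noah-1, noah-2, let-653, fbn-1 and dex-1. By this rule there were 47 genes, of which 46 had a probe among the 20482 genes represented on the array and 1, fbn-1, had none by its names. All worms were of the wild-type strain N2, with no further allele or agent, grown at 20 °C and taken as whole bodies on day 7 to 8 of adulthood. Worms were divided by their peak crawling speed on a plate without bacteria, the maximum velocity (MV). Those below 0.22 mm/sec formed the low MV group. No separate threshold for the high MV group is stated in the sources used here. The groups are thus slow and fast worms of the same age. RNA of 2 low MV and 2 high MV samples was hybridized to 4 single-colour arrays. How many worms gave each sample, and whether the replicates came from separate cultures, is not stated in the sources used here, so the p-values measure the spread between these samples, which may be technical.

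The body of the nematode is covered by a cuticle that the epidermis secretes at its apical surface in the embryo and again at each larval molt, and the adult does not molt. Before each cuticle is laid down, a transient precuticle lines the epidermis and the other epithelia that face the outside. Proteins with a zona pellucida (ZP) domain, which polymerize into filaments, are prominent in that layer and in the alae, the ridges along the sides of some stages. Cuticlins are the insoluble remainder of the cuticle after collagens have been extracted, and many ZP genes carry their name. The lipocalin-related (lpr) genes encode small secreted proteins of a family that carries lipids and other lipophilic cargo.

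Signal was higher in low MV worms for most of these genes. Without any filter on dim probes, 29 of the 46 genes were higher in low MV worms past an adjusted p of 0.05 and a 1.5-fold threshold (0.58 on the log2 scale), 2 were lower and 15 passed in neither direction (limma). Over all 20464 genes in that fit, 20.5% were higher and 14.3% lower. The median difference between low MV and high MV worms (log2) was 1.19 over the 46 genes and 0.06 over all genes. For 38 of the 46 the 2 low MV values exceeded the 2 high MV values, for 4 they lay below, and for 4 the groups overlapped, whereas 42.5% of all genes lay above and 35.8% below. The histogram of the differences sets the 46 genes beside all genes.

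**Figure D1:**
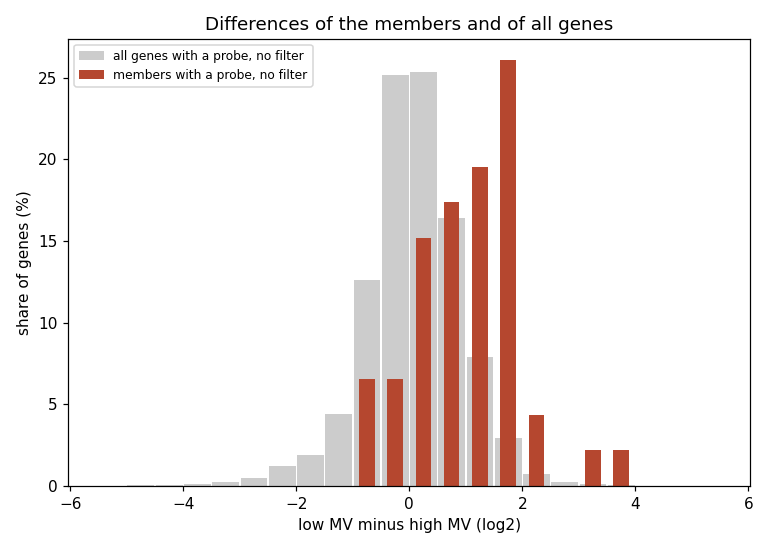
Share of genes (%, y axis) in each interval of the difference between low MV and high MV worms (log2, x axis), for the 46 genes with a probe (red) and all 20464 genes (grey), without a filter. The median of the red bars is 1.19 and that of the grey bars 0.06.

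The values below are log2 signals after background subtraction and quantile normalization between arrays, with each gene read from the brightest of its present probes. A probe counted as present in a group if it exceeded, on the 2 arrays of that group, the signal at which 2 fitted Gaussian densities meet, and was kept if present in either group. A log2 difference of 1 is a doubling. In that fit of 12883 genes, 33 of the 46 genes were tested, and 27 were higher, 2 lower and 4 past neither threshold, while 21.8% of all genes tested were higher and 17% lower. Of the 33, 25 passed the filter in both groups and 20 of these were higher in low MV worms. Another 7, namely cut-2, cut-3, cut-5, lpr-4, cutl-5, cutl-6 and cutl-28, passed it only through the low MV arrays, and cutl-19 only through the high MV arrays, so that for these 8 a difference was built into the filter. All 33 were well above background on all 4 arrays. Between 84.6% and 87.7% of the spots on each array were well above background and 0 were saturated, while precision is limited by having 4 arrays. The low MV arrays shared 1 slide and scan and the high MV arrays shared another, so that slide, scan and physical ability cannot be told apart. The smallest two-sided p that a permutation of these 4 arrays allows is 0.333, and every adjusted p here rests on the spread that limma shares across genes. In whole worms, fewer cells of a type and less RNA per cell cannot be told apart.

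The 4 matrix genes with a probe were all higher in low MV worms. NOAH-1 and NOAH-2 are ZP proteins of the embryonic precuticle that help the elongating embryo keep its shape. The signal of noah-1 (C34G6.6) was 12.74 and 12.66 in the 2 low MV samples and 10.95 and 10.96 in the 2 high MV samples. That of noah-2 (F52B11.3) was 11.52 and 11.22 in low MV and 9.63 and 9.69 in high MV worms. The samples of each group lay close together and the groups did not overlap. The differences were 1.74 for noah-1 (log2, limma, SE 0.09, adjusted p = 0.000645) and 1.71 for noah-2 (SE 0.13, adjusted p = 0.000905).

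LET-653 is a ZP protein that lines the lumen of the excretory duct and keeps it open. The signal of let-653 (C29E6.1) was 11.51 and 11.55 in low MV and 10.28 and 10.22 in high MV worms, a difference of 1.28 (SE 0.09, adjusted p = 0.000879). DEX-1 is a matrix protein that anchors the dendrite tips of sensory neurons during embryogenesis and acts in the remodelling of the seam epidermis in dauer larvae. The signal of dex-1 (D1044.2) was 8.85 and 8.62 in low MV and 6.97 and 6.90 in high MV worms. Its difference was 1.80 (SE 0.12, adjusted p = 0.000748), and its 3 probes ranged from 1.54 to 1.80. With spike-in controls as the reference for scaling, the difference of let-653 was 0.90 and missed the adjusted p, at 0.0538. FBN-1, a fibrillin-like ZP protein of the same embryonic layer as NOAH-1, could not be examined.

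**Figure D2:**
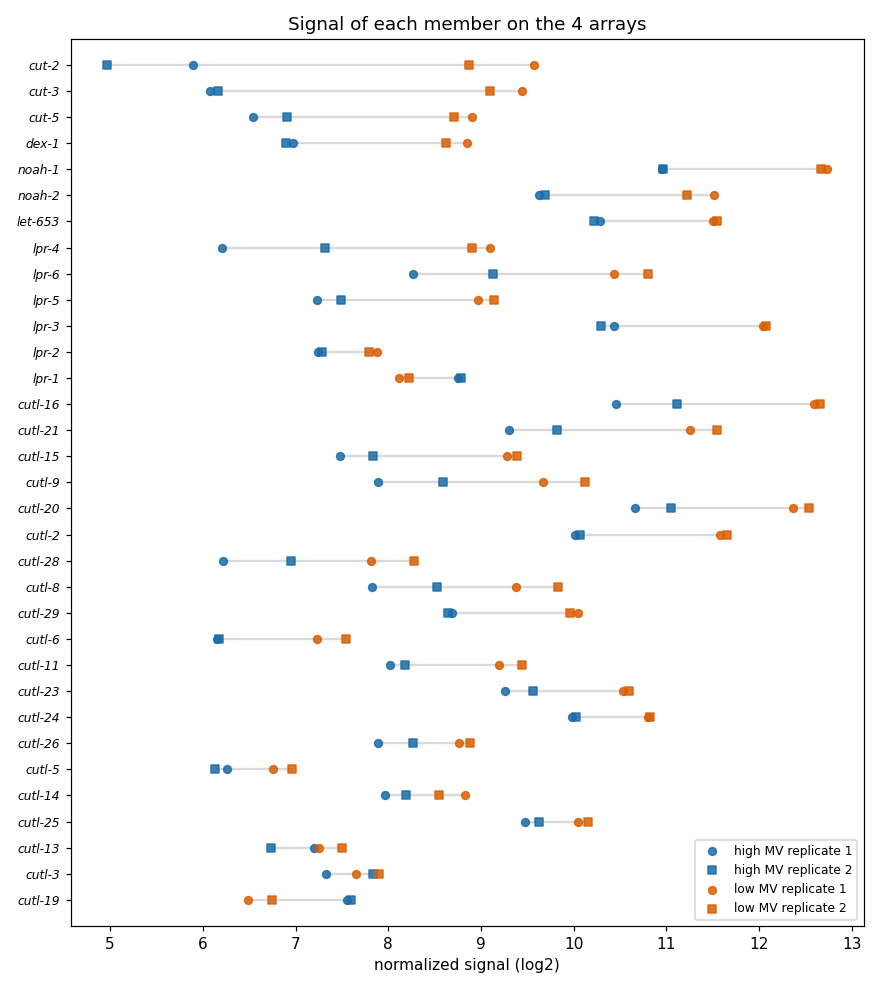
Normalized log2 signal (x axis) of the 33 genes that passed the filter (y axis, grouped by role) on the 2 low MV (orange) and 2 high MV (blue) arrays, with circles for replicate 1 and squares for replicate 2. Orange lies to the right of blue except for lpr-1 and cutl-19, where it lies to the left, and cutl-3, where the groups overlap.

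The lpr genes split. The neighbouring genes lpr-3, lpr-6, lpr-5 and lpr-4, which have 0 coding genes between them, were all higher in low MV worms, and lpr-1 was lower. LPR-3 is a component of the precuticle needed for a tight cuticle and an open excretory duct. The signal of lpr-3 (W04G3.8) was 12.05 and 12.07 in low MV and 10.43 and 10.30 in high MV worms, a difference of 1.69 (SE 0.10, adjusted p = 0.000718). That of lpr-5 (W04G3.2) was 8.97 and 9.14 against 7.23 and 7.49, also a difference of 1.69 (SE 0.13, adjusted p = 0.000964). In both genes the gap between the groups was several times the gap within them.

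The 2 high MV samples lay further apart in the remaining genes of the cluster. The signal of lpr-4 (W04G3.3) was 9.10 and 8.91 in low MV worms and 6.21 and 7.32 in high MV worms, a difference of 2.24 (SE 0.36, adjusted p = 0.00499). This gene passed the filter only through the low MV arrays, and in the fit without a filter its adjusted p was 0.0232 (limma). The signal of lpr-6 (W04G3.1) was 10.43 and 10.80 in low MV and 8.27 and 9.12 in high MV worms, a difference of 1.92 (SE 0.30, adjusted p = 0.00467). High MV replicate 2 was the higher of the 2 in both genes, and still below both low MV samples. Whether the probes of these neighbouring genes read each other was not tested.

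LPR-1 acts outside the cells that secrete it to keep the excretory duct and pore joined. The signal of lpr-1 (Y65B4BR.2) was 8.12 and 8.23 in low MV and 8.75 and 8.79 in high MV worms. The groups did not overlap, and the difference of -0.60 (SE 0.10, adjusted p = 0.00482) lay just past the fold threshold. Without low MV replicate 1 it was -0.54, under the threshold. The signal of lpr-2 (T12A7.5) was 7.87 and 7.79 in low MV and 7.24 and 7.28 in high MV worms. Its difference of 0.57 passed the adjusted p, at 0.00522, and missed the fold threshold. It passed both without high MV replicate 2, at 0.59, and without low MV replicate 2, at 0.61. The 6 probes of lpr-2 ranged from 0.01 to 0.64, with the smallest values from its dimmest probes. The remaining member, lpr-7, did not pass the filter.

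Of the 6 cuticlin genes, 3 passed the filter, all of them only through the low MV arrays, and all 3 were higher in low MV worms. CUT-2 is a cuticlin that is cross-linked through its tyrosines. The signal of cut-2 (F53F1.5) was 9.57 and 8.87 in low MV worms and 5.89 and 4.96 in high MV worms, a difference of 3.79 (SE 0.37, adjusted p = 0.00145), or 13.9-fold. CUT-3 and CUT-5 are ZP proteins that shape the body and the alae of larvae. The signal of cut-3 (F22B5.3) was 9.44 and 9.10 in low MV and 6.08 and 6.16 in high MV worms, a difference of 3.15 (SE 0.14, adjusted p = 0.000618). The signal of cut-5 (R07E3.3) was 8.90 and 8.70 in low MV and 6.54 and 6.91 in high MV worms, a difference of 2.07 (SE 0.16, adjusted p = 0.000911).

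All 4 high MV values of cut-2 and cut-3 and 1 of the 2 of cut-5 lay below the cutoffs for a present probe, which were 6.65 to 6.67. The size of these differences therefore rests on dim signal in high MV worms. With normexp background correction, whose offset of 50 shrinks the changes of dim spots by construction, cut-2 differed by 1.43, cut-3 by 1.30 and cut-5 by 0.83, and all 3 stayed past both thresholds. Their order among the 33 genes was not kept, since under this correction cut-2 ranked 6, behind cutl-16 at 1.61, noah-1 at 1.53, cutl-21 at 1.48, lpr-3 at 1.47 and noah-2 at 1.45. Under the same correction lpr-4 differed by 0.84, lpr-5 by 0.79, dex-1 by 0.77 and lpr-1 by -0.26.

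The other cuticlins did not pass the filter. CUT-1 and CUT-6 are cuticlins of the dauer larva. The probe of cut-1 was well above background on 1 of the 4 arrays, a low MV array. The brightest of the 4 probes of cut-6 read 6.33 and 5.32 in low MV and 6.55 and 6.39 in high MV worms, so that the groups did not overlap and low MV replicate 2 stood lowest. For cut-4 the groups overlapped, at 4.27 and 4.01 in low MV and 4.70 and 4.10 in high MV worms. None of these 3 passed the adjusted p in the fit without a filter.

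**Figure D3:**
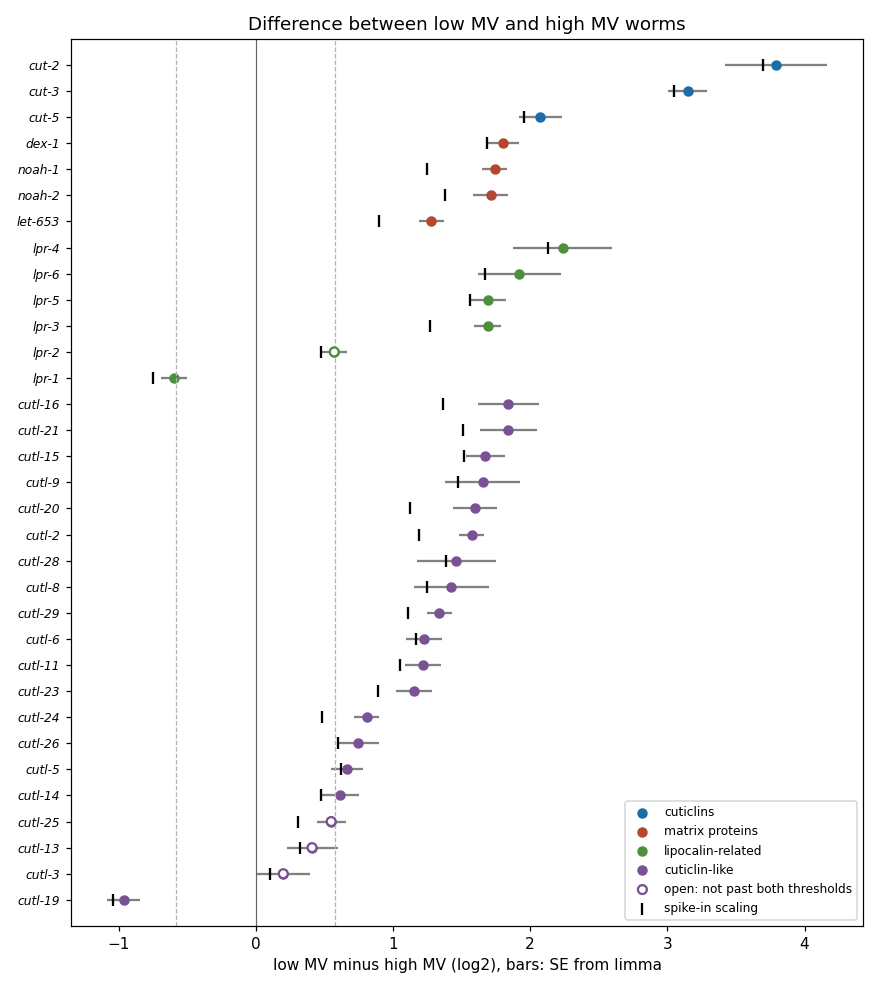
Difference between low MV and high MV worms (log2, x axis) of the 33 genes that passed the filter (y axis), with bars for the standard error from limma, colours for the role, open circles for genes that missed a threshold, dashed lines at -0.58 and 0.58, and vertical ticks for the value under spike-in scaling. The cuticlins reach 3.79 on dim high MV signal, most other genes lie between 0.61 and 2.24, and lpr-1 and cutl-19 lie below 0.

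Of the 29 cuticlin-like (cutl) genes, which encode ZP proteins that are mostly known by sequence alone, 20 passed the filter, and 16 of these were higher in low MV worms, 1 was lower and 3 passed in neither direction. The largest difference was that of cutl-16 (K06A1.3), with a signal of 12.59 and 12.66 in low MV and 10.45 and 11.12 in high MV worms, a difference of 1.84 (SE 0.23, adjusted p = 0.00234). That of cutl-21 (F55A4.10) was 11.26 and 11.55 against 9.30 and 9.82, also 1.84 (SE 0.21, adjusted p = 0.00188). That of cutl-15 (T21B10.6) was 9.28 and 9.38 against 7.48 and 7.83, a difference of 1.67 (SE 0.14, adjusted p = 0.00111). In all 3 genes the groups were well apart and high MV replicate 2 was the higher of its group.

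The signal of cutl-9 (M28.1) was 9.67 and 10.12 in low MV and 7.89 and 8.59 in high MV worms, a difference of 1.65 (SE 0.27, adjusted p = 0.00552). Of its 7 probes, 6 ranged from 1.53 to 1.88, and the other was not well above background on any array. For cutl-20 (F54A5.2) the signal was 12.37 and 12.53 against 10.66 and 11.05, a difference of 1.59 (SE 0.16, adjusted p = 0.0015), while its second probe gave 0.53. For cutl-2 (Y53C12B.6) it was 11.57 and 11.65 against 10.01 and 10.07, a difference of 1.57 (SE 0.09, adjusted p = 0.000718). The groups were apart in both genes by their brightest probe, and the second probe of cutl-20 missed the fold threshold.

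The other 10 cuticlin-like genes that were higher had differences from 0.61 to 1.46, with adjusted p from 0.000828 to 0.0164. They were cutl-28, cutl-8, cutl-29, cutl-6, cutl-11, cutl-23, cutl-24, cutl-26, cutl-5 and cutl-14, in falling order. Among them cutl-28, cutl-6 and cutl-5 passed the filter only through the low MV arrays. For 3 of the smaller differences the call rested on single samples. Without low MV replicate 1 or high MV replicate 1 the difference of cutl-14 was 0.47 or 0.50, with an adjusted p of 0.0754 or 0.0652. Without high MV replicate 1 that of cutl-26 was 0.55, and without low MV replicate 2 that of cutl-5 was 0.56, both under the fold threshold. The brighter probe of cutl-5, which was not kept, gave 0.29 and did not pass in the fit without a filter. With normexp background correction cutl-28, cutl-26, cutl-14, cutl-6 and cutl-5 differed by 0.44, 0.36, 0.31, 0.28 and 0.14 and missed the fold threshold. On the deposited log2 table cutl-14, at 0.47, cutl-5, at 0.42, and lpr-1, at -0.49, missed it as well.

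One cuticlin-like gene ran the other way. The signal of cutl-19 (ZC155.5) was 6.48 and 6.74 in low MV and 7.55 and 7.60 in high MV worms, a difference of -0.96 (SE 0.12, adjusted p = 0.0025), and with normexp background correction it was -0.20. This gene passed the filter only through the high MV arrays. The remaining 3 genes passed in neither direction. The signal of cutl-25 was 10.04 and 10.15 in low MV and 9.48 and 9.62 in high MV worms, and its difference of 0.55 passed the adjusted p, at 0.00864, but not the fold threshold. Without low MV replicate 1 or high MV replicate 2 it was 0.61 or 0.62 and passed both. That of cutl-13 was 7.25 and 7.50 against 7.19 and 6.73, a difference of 0.41 (adjusted p = 0.111), which was 0.64 and passed both thresholds without high MV replicate 1. For cutl-3 the groups overlapped, at 7.66 and 7.90 against 7.32 and 7.83, and its difference was 0.20 (adjusted p = 0.412).

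The 9 cuticlin-like genes that did not pass the filter were cutl-1, cutl-4, cutl-7, cutl-10, cutl-12, cutl-17, cutl-18, cutl-22 and cutl-27. In the fit without a filter, 3 of them, cutl-10, cutl-17 and cutl-27, were higher in low MV worms past both thresholds. The signal of cutl-27, the neighbour of let-653 with 0 coding genes between them, was 6.59 and 7.05 in low MV and 5.79 and 5.80 in high MV worms. That of cutl-10 was 6.16 and 5.97 against 5.15 and 4.41, and the signal of cutl-17 was at most 4.35 in low MV and at most 3.47 in high MV worms. The groups did not overlap in these genes, and all but 1 of the values lay below the cutoffs for a present probe.

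Of the 33 genes, 9 had more than 1 probe. Among their 21 other probes, 20 gave a difference of the same sign, the exception being the dark probe of cutl-9. Probes of 1 gene read the same transcript and are not independent. The size could differ between probes, as for cutl-24, whose brightest probe gave 0.81 and its other 2 probes 1.68 and 1.69.

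The 33 genes kept their direction under both other scalings, to the 75th percentile of each array and to spike-in controls, with 31 above 0 and 2 below. With 8 spike-in probes as the reference, the median difference of all genes moved from 0.01 to -0.38, and the split of calls over all genes moved from 2808 higher and 2191 lower to 952 higher and 2896 lower. Under spike-in scaling the median of the 33 genes was 1.19, which lies 1.57 above the median of all genes, compared with 1.45 above it under quantile normalization. Scaling to the 75th percentile also gave 1.57, because the 2 scalings differ only by 1 constant per array, so these are not separate results. With spike-in scaling the number of the 33 genes past both thresholds was 21 higher and 1 lower. The genes that no longer passed were let-653, cutl-14, cutl-23, cutl-24, cutl-26, cutl-5 and lpr-1. Across the 33 genes a larger difference always had the smaller adjusted p under this scaling. It was 0.0538 for let-653 at 0.90, 0.0234 for cutl-11 at 1.05 and 2.0e-20 for cut-2 at 3.70 (limma). The adjusted p thus acted as a cutoff on size there and did not measure the spread of single genes.

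Several of the genes lay far apart between the 2 high MV samples. The difference between these samples exceeded 0.58 in size for 7 of the 33 genes, or 21.2%, compared with 3.46% of all genes tested. High MV replicate 2 was above replicate 1 by 1.11 in lpr-4, 0.85 in lpr-6, 0.74 in cutl-28, 0.70 in cutl-9, 0.70 in cutl-8 and 0.66 in cutl-16, and below it by 0.93 in cut-2. Between the 2 low MV samples 1 gene, cut-2, differed by as much, with 0.70, which is 3.03% of the genes compared with 3.24% of all genes. Low MV replicate 2 also lay above replicate 1 by 0.47 in cutl-28, 0.45 in cutl-9, 0.44 in cutl-8, 0.37 in lpr-6 and 0.07 in cutl-16, and below it by 0.70 in cut-2. These 6 genes thus moved the same way between the replicates of both groups, while lpr-4 was lower in low MV replicate 2 by 0.19. The 0.07 of cutl-16 is under the median size of this gap over all genes tested, 0.09. The genes were picked for a large gap between the high MV samples, and how many of all genes moved the same way was not counted. No test was made of the shares beyond 0.58, since each rests on 2 samples. With high MV replicate 2 left out the median difference over the 33 genes was 1.62, and with high MV replicate 1 left out it was 1.31.

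**Figure D4:**
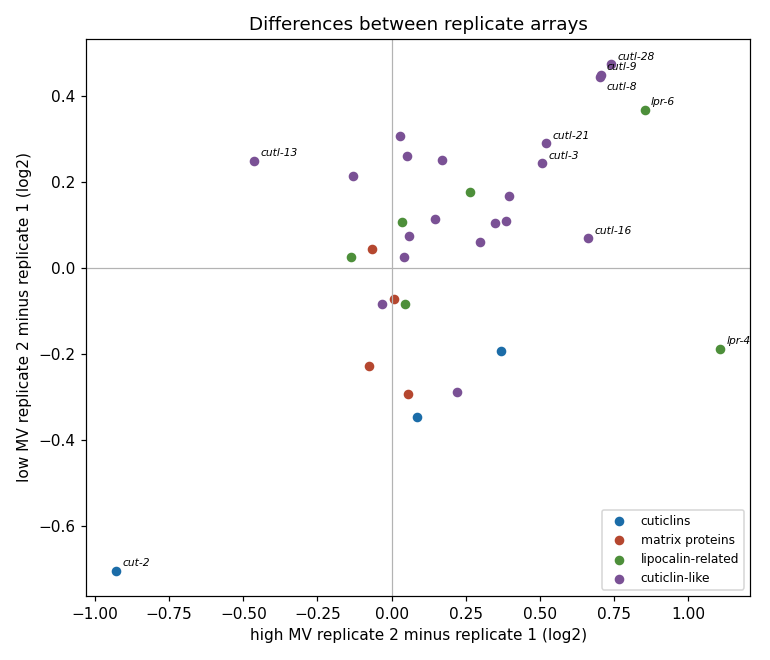
Difference between replicate 2 and replicate 1 (log2) among high MV samples (x axis) and among low MV samples (y axis) for the 33 genes that passed the filter, coloured by role. The points spread from -0.93 to 1.11 along the x axis and from -0.70 to 0.47 along the y axis, with lpr-4, lpr-6 and 4 cuticlin-like genes beyond 0.58 on the right and cut-2 at the lower left.

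Other genes of the cuticle were examined in lists, described by their counts in the same fit. Because the filter can favour genes that are high in 1 group, the median without a filter over every gene with a probe is also given. Of all genes, 21.8% were higher and 17% lower with the filter, and 20.5% and 14.3% without it. Among other precuticle and molting genes, 11 of the 19 that passed the filter were higher in low MV worms and 0 lower, with a median of 0.84. Of these 11, phg-1 passed the filter only through the low MV arrays. Without the filter 11 of 23 genes were higher and 1 lower, with a median of 0.81. The largest differences were those of mlt-11, a secreted protease inhibitor needed for molting (2.11, SE 0.18, adjusted p = 0.00112), acn-1, an enzyme-like protein needed for molting (2.05, SE 0.15, adjusted p = 0.000905), and ptr-4, a Patched-related protein (2.01, SE 0.13, adjusted p = 0.000757). Among regulators of the molting cycle, 4 of 9 were higher and 0 lower, with a median of 0.53, or 0.71 over 12 genes without the filter. They included myrf-2 at 1.41, the nuclear receptor nhr-25 at 1.32 and the period homologue lin-42 at 0.87. The difference of nhr-23, a nuclear receptor that drives molting gene expression, was -0.31 and did not pass (adjusted p = 0.214). Under spike-in scaling 7 precuticle and molting genes were higher and 1 lower, and 2 regulators were higher.

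Collagens form most of the cuticle. Of the collagens of the annular furrows, 4 of 5 were higher in low MV worms, with a median of 1.58. The largest differences were in dpy-2 (2.01), dpy-7 (1.75) and dpy-10 (1.58), and dpy-9 passed the filter only through the low MV arrays. Without the filter 4 of 6 were higher and 0 lower, with a median of 1.55. Of the other body shape collagens, 6 of 10 were higher and 1 lower, with a median of 1.65. Of these 10, sqt-1, rol-6, dpy-13 and lon-3 passed the filter only through the low MV arrays, and dpy-4 and bli-6 only through the high MV arrays. Without the filter 6 of 14 were higher and 2 lower, and the median was 0.88. The differences of sqt-1, rol-6 and dpy-13 were 3.66, 2.78 and 2.58, each set against high MV signals below 5, and dpy-4 fell by 1.23. In this list 5 of the 10 genes differed by over 0.58 between the 2 low MV samples and 0 between the 2 high MV samples. Of the enzymes that process and cross-link cuticle proteins, 2 of 10 were higher and 1 lower, with a median of -0.03, or -0.14 over 11 genes without the filter. The collagen prolyl hydroxylase subunits dpy-18 and phy-2 were higher, by 1.13 and 0.65, and the protease dpy-31 was lower, at -0.83. Under spike-in scaling 0 of these enzymes were higher and 2 lower. The strip plot of the lists shows these values together.

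**Figure D5:**
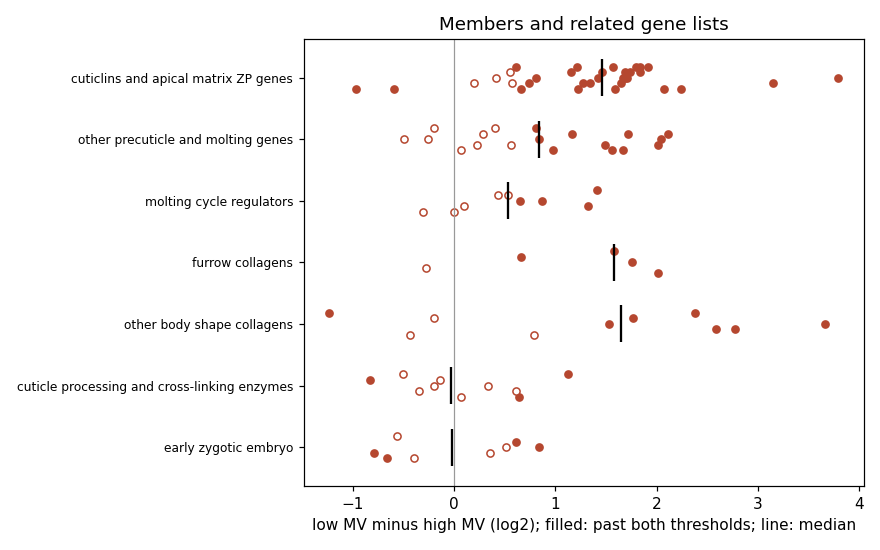
Difference between low MV and high MV worms (log2, x axis) of each gene that passed the filter in the 33 cuticlin and apical matrix genes, 5 related lists and the early zygotic embryo markers (y axis), with filled points past both thresholds, open points for the rest and a line at each median. The medians are 1.46 for the cuticlin and apical matrix genes and -0.03 and -0.02 for the enzymes and the embryo markers.

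Markers of the tissues in the whole worm were read beside these genes. These lists share genes with those above, namely dpy-7, rol-6, nhr-25 and elt-3 among the epidermis markers and let-4 among the excretory markers, so they are not separate evidence. Over all genes tested 21.8% were higher and 17% lower, and a count near these shares is no result about a tissue. Of 7 epidermis markers, 6 passed the filter, 4 were higher and 1 lower in low MV worms, and the linear signal summed over those with a probe, as for each list here, was 19519 to 19681 in low MV and 14680 to 16566 in high MV worms. The 1 that was lower was col-19, a collagen of the adult cuticle, with a log2 signal of 9.09 and 9.05 in low MV and 12.81 and 12.47 in high MV worms, a difference of -3.57 (SE 0.14, adjusted p = 0.000499). Of 4 kept markers of the excretory canal and duct, 3 were higher, with a sum of 5782 to 5796 against 2845 to 3522. Without the filter 3 of the 5 excretory markers were higher and 1 lower. The lower marker was lin-48, at -0.68, which did not pass the filter. All 3 kept glial markers were higher, with a sum of 1206 to 1405 against 661 to 685, and both kept pharynx markers, with a sum of 4749 to 5182 against 1736 to 2348. Of 5 body wall muscle markers 1 was higher and 2 lower, with a sum of 6266 to 7755 against 5866 to 6181. The 1 that was higher, unc-89, passed the filter only through the low MV arrays, as did rol-6 among the epidermis markers. Of 5 intestine markers 0 were higher and 1 lower, with a sum of 7396 to 12451 against 7368 to 7718. The upper value was that of low MV replicate 1, where act-5 read 12.96 and ifb-2 11.19 (log2), against 12.21 and 9.72 in low MV replicate 2. Low MV replicate 1 also exceeded replicate 2 in every body wall muscle marker, as in unc-54 at 7.67 against 6.76. In the pharynx list myo-2, which did not pass the filter, read 8.59 against 6.26. The kept pharynx markers were closer, with pha-4 at 9.33 against 9.23 and tnc-2 at 11.97 against 11.96. Of 6 neuron markers 2 were higher and 0 lower, with a sum of 45644 to 50572 against 39335 to 40316. Linear sums mostly follow the brightest genes of a list. Among neuron markers that is snb-1, with a difference of 0.19 that passed in neither direction, and among the maternal markers below pos-1 and puf-5. Of 8 kept markers of the early zygotic embryo, 2 were higher and 2 lower, with a sum of 10850 to 11076 against 8215 to 8944. Of 6 maternal markers 0 passed in either direction, with a sum of 273686 to 275004 against 311702 to 342171. Of 6 germline markers 0 were higher and 2 lower, with a sum of 84314 to 90310 against 85966 to 99267. No marker of these lists was below the background flag on all 4 arrays. No markers of elongating embryos or of larvae were listed, and the part of other tissues or of embryos in the differences above was not tested.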

How the data were processed

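The authors labelled total RNA of 2 low MV and 2 high MV samples with Cy3 and hybridized it to 4 single-colour Agilent C. elegans arrays. They deposited, per spot, the scanner's background-subtracted intensity, the median spot and local background brightness, and other flags. The log2 table that the authors deposited equals the quantile-normalized log2 median brightness of all spots to within 5e-09.

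Here the log2 intensity of 43803 non-control spots was quantile normalized. Probes with an outlier flag, 62 in all, were dropped. Cutoffs came from mclust 6.1.1. The comparison used limma 3.58.1 under R 4.3.3, with Benjamini-Hochberg adjustment over all genes, and the step was tested on simulated data. Tables were made with Python 3.11.15, pandas 2.3.3 and numpy 2.4.6, and figures with matplotlib 3.10.9. Of 28477 probe names, 22720 matched a gene of the RefSeq table for WBcel235, used for names and neighbours only.

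The alternatives were 75th percentile and spike-in scaling, normexp with an offset of 50 on the median brightness, the deposited log2 table, no filter, the scanner's background flag as the filter, averaging of a gene's probes, a trended and robust variance prior, a 2-fold threshold, unadjusted p, the t-test that is 1 part of the methods' combined test, adjusted and unadjusted, the replicate number as a block and each array left out in turn. A slide block could not be fitted. Every member past both thresholds was to be named. Members, lists and alternatives were chosen with earlier results of these data known. No probe, promoter or protein sequence was used here.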

Additional observations from a re-analysis of the deposited data

How the results depend on the processing

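All but 1 of the 33 genes kept the sign of the difference under all alternatives run. The exception was cutl-3, at -0.053 without high MV replicate 1 and at 0.454 without high MV replicate 2. The variance prior, replicate block, t-tests, unadjusted p and 2-fold threshold leave the difference itself unchanged, so the sign could not change under them. For genes with 1 probe the same holds for the other filters and the averaging of probes. Of the 27 higher genes, 19 passed the thresholds in all 16 limma settings. Among these settings, unadjusted p and the 2-fold threshold reread the main fit with another cutoff. The count of lower genes among the 33, 2 in the main processing, was 1 with 75th percentile scaling, spike-in scaling and the deposited log2 table, 0 with normexp, the adjusted t-test and a 2-fold threshold, and 1 to 2 with each array left out. The count of higher genes was 26 to 29 with each array left out and 9 with the adjusted t-test, whose variance comes from the 4 arrays of 1 gene alone. Unadjusted, that test gave 20 higher and 2 lower. It is 1 of the 2 statistics that the methods combine, and the combined test was not run. The median of 1.46 was 1.19 with spike-in scaling, 0.84 with normexp and 1.31 to 1.62 with each array left out. It was 1.19 with no filter, over all 46 genes with a probe. With the filter on spots well above background it was 1.22, over the larger set of members which that filter keeps. These last 2 medians are thus not of the same 33 genes. Over all genes, 2808 higher and 2191 lower in the main processing, the higher count was 952 with spike-in scaling, 1533 with normexp, 801 with the adjusted t-test and 1284 at 2-fold. It was 4251 with the filter on spots well above background, which tests another set of genes. The lower count was 1309, 762 and 923 with normexp, that t-test and 2-fold. Unless stated, the cause of a change was not tested. With 1 array of a group left out, the lone array is assumed to vary like the other group.

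Replicate numbers did not pair the samples over all genes tested, where same-numbered samples had a correlation of deviations of -0.04. Several of the 33 genes, picked for a large gap between the high MV samples, moved the same way between the replicates of both groups. How many of all genes did so was not counted. With the replicate number as a block the counts were 27 higher and 2 lower among the 33 genes and 2836 and 2196 over all genes. The number of arrays limits what can be detected.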
